A study of Mus musculus with 42 samples.

Results

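The genes described here encode enzymes that oxidise, reduce or conjugate drugs, steroids, retinoids and reactive by-products of metabolism. They were taken by symbol prefix, as genes of the platform annotation that begin with Cyp and a digit, Fmo, Aldh, Akr, Gst, Ugt or Sult. Of 134 such genes on the array, 48 had values on both arrays of at least 15 of the 21 tumours, out of 7629 genes measured as often. The other 86 had too few values. Just inside that limit, with 15 tumours each, were Cyp2f2, Cyp3a13, Cyp3a44 and Fmo1. Just outside it, with 14 tumours each, were Akr1b8, Cyp24a1, Cyp2d40, Cyp4f13, Cyp7a1 and Ugt8a, and Cyp1a1 had 13. A few members carry the prefix without being detoxification enzymes in the usual sense: Cyp51 works in sterol synthesis, Cyp17a1 in steroid hormone synthesis and Aldh18a1 in proline synthesis, while Cyp4f41-ps is annotated as a pseudogene.

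The RNA came from 21 mammary tumours on 42 two-colour oligonucleotide arrays. All tumours descended from neoplasms of mice carrying a c-Myc transgene under the promoter of the milk protein gene Wap (FVB/N-Tg(WapMyc)212Bri). Selection in living mice had given a glandular line, solid or comedo lines without or with lung metastases, and a spindle-cell line; no untransformed gland is among the samples, and the labels give each tumour's number but not its line. Each tumour was set against the Universal Mouse Reference RNA on 2 arrays with swapped dyes, so the tumours are the units and the pair of arrays measures hybridisation error only. Differences between tumours are therefore differences between single RNA samples, with no test over animals or lines. In whole tumours, fewer cells of a type and less RNA per cell cannot be told apart.

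Values are log2 ratios of tumour to reference RNA after turning for the dye swap, with each array's median subtracted. The labels do not settle which side of 0 is the tumour. The sign was chosen so that Myc is positive. The sign of every level below could turn over as a whole, while the order of tumours apart from its direction would stand. The signs of correlations between levels would also stand, since both sides would turn together. The measured values per array numbered 8600 to 21328 probes. Before turning, the 2 arrays of every tumour correlated below 0 over tested probes (r from -0.732 to -0.133), with the value nearest to 0 in tumour 660. Tumour 656 had r = -0.271 over tested probes and 0.074 over all probes, so its repeat arrays were among the least alike. Slides fall into 3 numbered runs of 9, 13 and 20 arrays, and 4 tumours have arrays in different runs.

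Detoxification is usually described in phases. In phase I, cytochrome P450s, flavin monooxygenases, aldehyde dehydrogenases and aldo-keto reductases add or unmask a reactive group. In phase II, glutathione transferases, UDP-glucuronosyltransferases and sulfotransferases attach a polar partner that makes the product easier to excrete. Liver holds the highest levels of most of these enzymes, and glands, airways and steroid-making tissues express selected members.

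Of the 48 genes, 8 differed between tumours (16.7%), against 18.9% of all 7629 genes tested (limma's moderated F test on the deposited scale, Benjamini-Hochberg adjusted p of 0.05). They were Aldh7a1, Gstm5, Cyp2f2, Aldh2, Akr1a1, Ugt2b37, Cyp2c29 and Cyp4f18. The share lies near that of all genes and is no result about the set. With arrays centred, 10 of 48 differed (20.8%) against 19.3% of all genes, and with dye orientation as a covariate 22 differed (45.8%) against 45.1%. Aldh7a1, Cyp2f2, Aldh2, Ugt2b37 and Cyp2c29 passed under all of these fits. The median standard deviation between tumour means was 0.76 over the members and 0.73 over all genes. The count rested in part on single arrays: it was 22 without the second array of tumour 660 and 17 without the first array of tumour 663, when 2437 and 1995 of all genes differed. A tumour with 1 array of a gene is given by that array, as are the values of Gstt3, Akr1c18 and Cyp4b1 in tumour 667. At least 1 pair of tumours 1 or more apart also passed an adjusted p of 0.05 over genes and pairs in 16 of the 48 genes, against 35.5% of all genes.

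**Figure D1:**
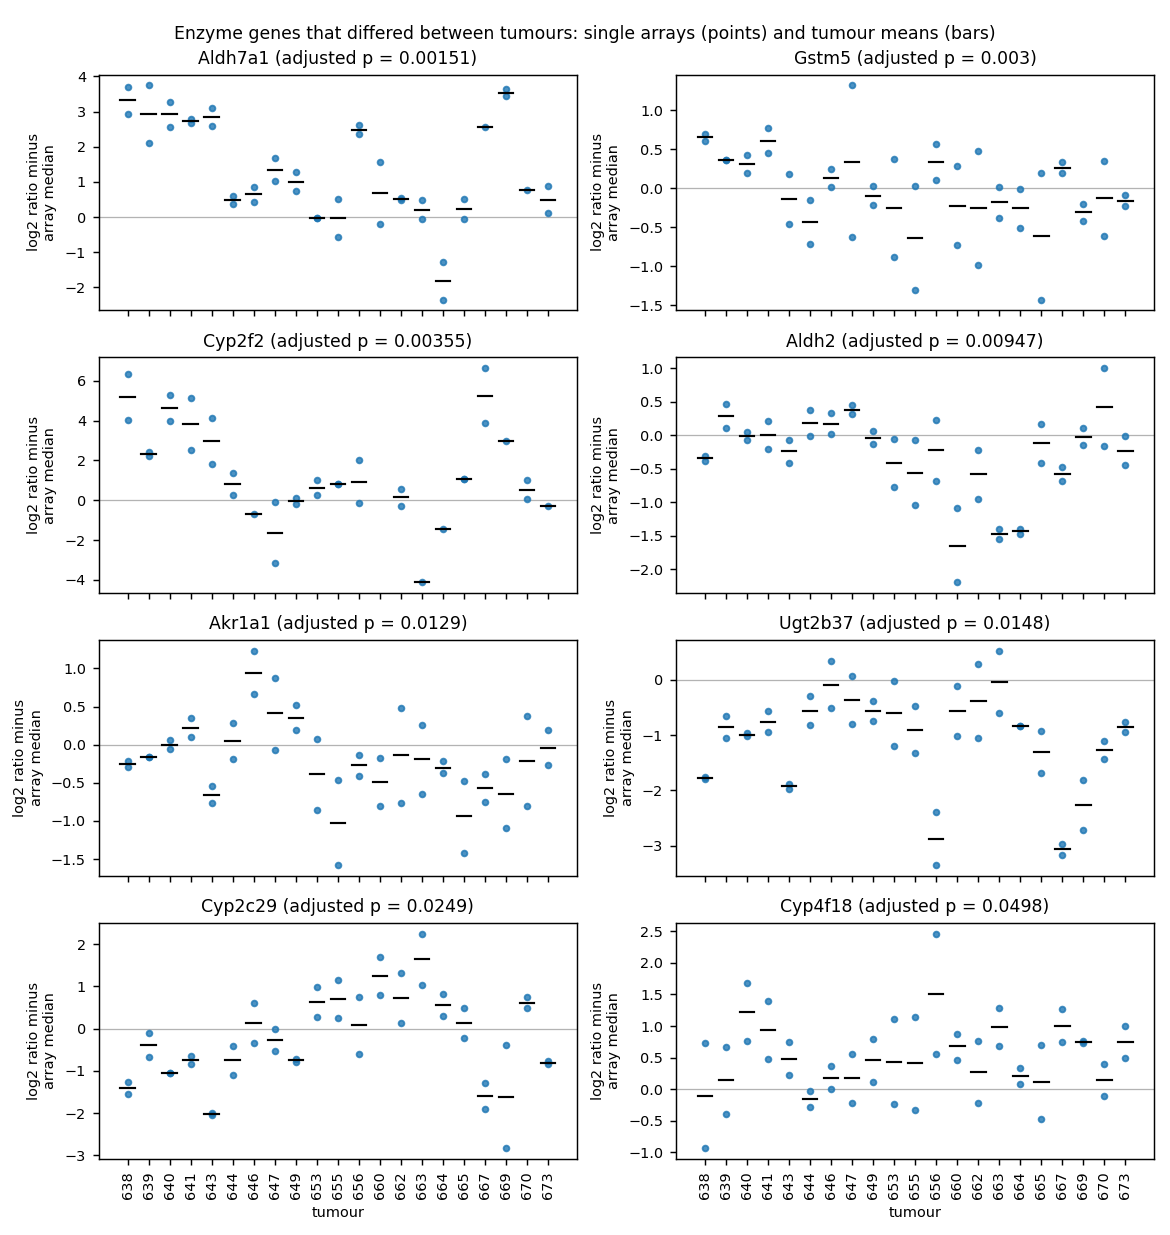
The 8 enzyme genes that differed between the 21 tumours on the deposited scale, which gave the adjusted p above each panel. The levels shown are centred. With arrays centred, limma's adjusted p was 0.897 for Gstm5, 0.376 for Akr1a1 and 0.772 for Cyp4f18. Each panel shows the log2 ratio minus the array median (vertical axis) by tumour (horizontal axis), with points for single arrays and bars for tumour means; Cyp2f2 runs from -4.13 in tumour 663 to 5.26 in tumour 667, and Ugt2b37 lies below 0 in all 21 tumour means.

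Among the P450s, 61 genes were annotated, 17 measured, and 3 differed on the deposited scale. Cyp2f2, an enzyme best known in mouse airway club cells, where it activates naphthalene and similar compounds, had the widest range of all members. Its 2 arrays read 3.88 and 6.64 in tumour 667, and 4.04 and 6.35 in tumour 638. Tumour 640 had 3.99 and 5.27, tumour 641 had 2.50 and 5.15, and tumour 643 had 4.14 and 1.82. At the other end, the only value for tumour 663 was -4.13, tumour 647 had -3.18 and -0.10, and tumour 664 had a single value of -1.46. The tumours thus ran from -4.13 through a median of 0.81 to 5.26, a spread of 9.39 with a standard error of 0.79 for a mean of 2 arrays. The gene had no value in tumour 660, which its fit leaves out. Its adjusted p was 0.00355 and 15 of 190 tumour pairs were called apart. Dim readings, in which the ratio is one of small whole numbers, made up 25.7% of its values.

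Cyp2c29, a P450 that in mouse liver oxidises fatty acids and drugs and responds to the nuclear receptor CAR, differed with its low values in tumours where Cyp2f2 was high. It had its lowest mean in tumour 643, at -2.03 with arrays at -2.04 and -2.01, followed by -1.61 in tumour 669 and -1.59 in tumour 667. Its highest means were 1.65 in tumour 663, 1.24 in tumour 660 and 0.72 in tumour 662, around a median of -0.27. The adjusted p was 0.0249 and became 0.0503 without the first array of tumour 638. Its means over the tumours of slide runs 1, 2 and 3 were -0.9, 0.76 and -0.9. The highest tumour of run 1 was at -0.39 and the lowest of run 2 at 0.08. With slide run as a block the adjusted p was 0.385. Cyp2c55, a related P450 that oxidises arachidonic acid, ran from -2.98 in tumour 643 to 1.03 in tumour 663 with a median of -0.64. It missed the threshold on the deposited scale (adjusted p = 0.303) and passed with arrays centred (0.0249). Cyp2c29 and Cyp2c55 followed each other closely over the 21 tumours (Pearson r = 0.97, Spearman rho = 0.97, r = 0.97 without the 2 tumours farthest from the median of Cyp2c29). Cyp2c55 was picked for this r, the highest of Cyp2c29 with any other member, so the r is a description. The Cyp2c genes are paralogs, and whether the 2 probes bind each other's transcripts was not tested.

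The windows from 250 bases before to 50 bases after the RefSeq start sites of these 3 genes are printed because the genes moved together or against each other. The build is GRCm38.p6, all 3 lie on the plus strand, and capitals mark the letters TATAAA. Cyp2f2 is at chr7:27119705-27120004, Cyp2c29 at chr19:39286835-39287134 and Cyp2c55 at chr19:39006769-39007068.
Cyp2f2: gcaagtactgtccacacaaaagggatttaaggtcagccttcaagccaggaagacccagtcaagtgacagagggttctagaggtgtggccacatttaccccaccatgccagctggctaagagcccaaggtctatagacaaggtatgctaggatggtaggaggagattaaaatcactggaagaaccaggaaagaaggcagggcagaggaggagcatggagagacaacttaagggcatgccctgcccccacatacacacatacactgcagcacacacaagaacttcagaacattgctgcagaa
Cyp2c29: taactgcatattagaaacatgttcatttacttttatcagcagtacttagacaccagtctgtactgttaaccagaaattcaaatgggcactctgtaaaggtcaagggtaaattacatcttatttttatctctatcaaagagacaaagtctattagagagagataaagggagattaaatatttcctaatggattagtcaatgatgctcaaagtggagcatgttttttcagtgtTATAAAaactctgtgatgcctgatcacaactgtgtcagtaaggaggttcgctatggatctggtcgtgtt
Cyp2c55: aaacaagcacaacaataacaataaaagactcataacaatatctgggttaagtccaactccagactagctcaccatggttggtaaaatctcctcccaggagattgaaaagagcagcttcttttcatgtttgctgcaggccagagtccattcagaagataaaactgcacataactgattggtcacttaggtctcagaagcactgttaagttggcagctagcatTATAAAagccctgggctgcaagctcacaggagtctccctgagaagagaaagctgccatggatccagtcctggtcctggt
On either strand, TATAAA, a motif added after the values were seen, lies once in each Cyp2c window and not in that of Cyp2f2. It occurs in 25.6% of the 43 member windows, 11 of them, and in 13.6% of all 32851 RefSeq windows. None of the 3 windows holds TGACNNNGC, the core of the antioxidant response element bound by NRF2, or GCGTG, the core of the dioxin response element bound by the aryl hydrocarbon receptor. Those letters occur on either strand in 9.3% and 30.2% of the same 43 windows, of 38 members, against 12.4% and 32.4% of all windows.

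Cyp4f18, a fatty acid hydroxylase of leukocytes in the mouse, was at the threshold (adjusted p = 0.0498). It ran from -0.15 in tumour 644 to 1.51 in tumour 656, with 2.46 and 0.55 on the arrays of tumour 656, and only 8 of 42 fits without 1 array kept the call. With arrays centred its adjusted p was 0.772. Cyp3a44, a member of the drug-oxidising 3A subfamily, had a wide range, from -2.76 in tumour 655 to 5.77 on the only array of tumour 646 with a value. Its adjusted p was 0.0684 on the deposited scale and 0.019 with arrays centred, with dim readings in 47.2% of its values. Cyp51, the sterol demethylase, read -1.82 in tumours 641 and 656 and 0.44 in tumour 646 (adjusted p = 0.168, and 0.0299 centred). Cyp3a13, Cyp39a1, an oxysterol hydroxylase, Cyp2c39 and Cyp2d9 had ranges of 4.31 to 5.27 and did not pass (adjusted p from 0.29 to 0.831). Cyp4b1, which oxidises fatty acids and some protoxins, had a median of 0.70, with 2.45 in tumour 638 and -0.84 in tumour 667, and an adjusted p of 0.942.

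The Fmo prefix took in 4 genes, of which Fmod, fibromodulin, is a matrix proteoglycan and no monooxygenase. Fmo1 and Fmo5 were measured and neither passed, while Fmo2 and Fmod had too few values. Fmo5 ran from -0.50 in tumour 647 to 0.91 in tumour 656 around a median of 0.47 (adjusted p = 0.563). These enzymes oxidise nitrogen and sulphur atoms of drugs.

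Of 17 annotated aldehyde dehydrogenases, 10 were measured and 2 differed. Aldh7a1, which clears the aldehyde formed in lysine breakdown, read 3.63 and 3.43 in tumour 669, 2.93 and 3.71 in tumour 638, and 3.75 and 2.12 in tumour 639. In tumour 664 the arrays read -2.35 and -1.28, and tumours 653 and 655 had means of -0.02 and -0.03. The median was 0.78 and the standard error of a mean of 2 arrays 0.42. The adjusted p was 0.00151, 18 of 210 pairs of tumours were called apart, and the range of tumour means was 5.34. The 8 high tumours held 3 of the 4 tumours of slide run 1, 1 of the 5 of run 2 and 4 of the 8 of run 3, with means over the tumours of a run of 2.42, 0.63 and 1.91. The top deposited value, which was set missing, fell on 1 array of this gene, in tumour 670. With it kept as a measurement the adjusted p was 0.288.

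Aldh2, the mitochondrial enzyme that clears acetaldehyde, stood apart at the low end. Its arrays read -2.20 and -1.09 in tumour 660, -1.55 and -1.40 in tumour 663, and -1.40 and -1.47 in tumour 664. The other 18 tumours lay between -0.58 and 0.42. The 3 tumours were set apart by these same values, so the gap is a description. All 3 had arrays in slide run 2: tumour 663 in that run only, and tumours 660 and 664 in runs 2 and 3. Over the tumours wholly in runs 1, 2 and 3, the means of Aldh2 were 0.03, -0.65 and -0.04. The part of the run in the gap was not tested. The adjusted p of Aldh2 was 0.00947 (0.031 centred, 0.319 after quantile normalisation, 0.188 with slide run as a block), and 21 of 210 pairs were called apart. Tumours 660, 663 and 664 were called apart from 10, 9 and 2 other tumours on the deposited scale, not on the centred levels given here. By centred levels these tumours were also the lowest for 5, 10 and 7 of the 48 members, so low values there were not particular to Aldh2. Aldh3a2, which oxidises fatty aldehydes, ran from -3.35 in tumour 663 to 1.86 in tumour 669 and did not pass (adjusted p = 0.145). Aldh1a3, a retinaldehyde dehydrogenase, ran from -2.59 in tumour 641 to 1.46 in tumour 669 (0.467), and Aldh16a1 from -3.08 in tumour 669 to 1.24 in tumour 653 (0.876). Aldh18a1 was just outside the threshold, at 0.0502. With dye orientation as a covariate, where 22 members passed, Aldh3a2 did so too (0.0158).

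Of 12 annotated aldo-keto reductases, 5 were measured. Akr1a1, aldehyde reductase, read 1.23 and 0.66 in tumour 646 and -1.58 and -0.46 in tumour 655, around a median of -0.22 (adjusted p = 0.0129). The call was lost with arrays centred, at 0.376. Akr1c18, which inactivates progesterone, ran from -0.97 in tumour 660 up to 1.33 in tumour 667, with an adjusted p of 0.319 (0.0111 with the dye covariate).

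**Figure D2:**
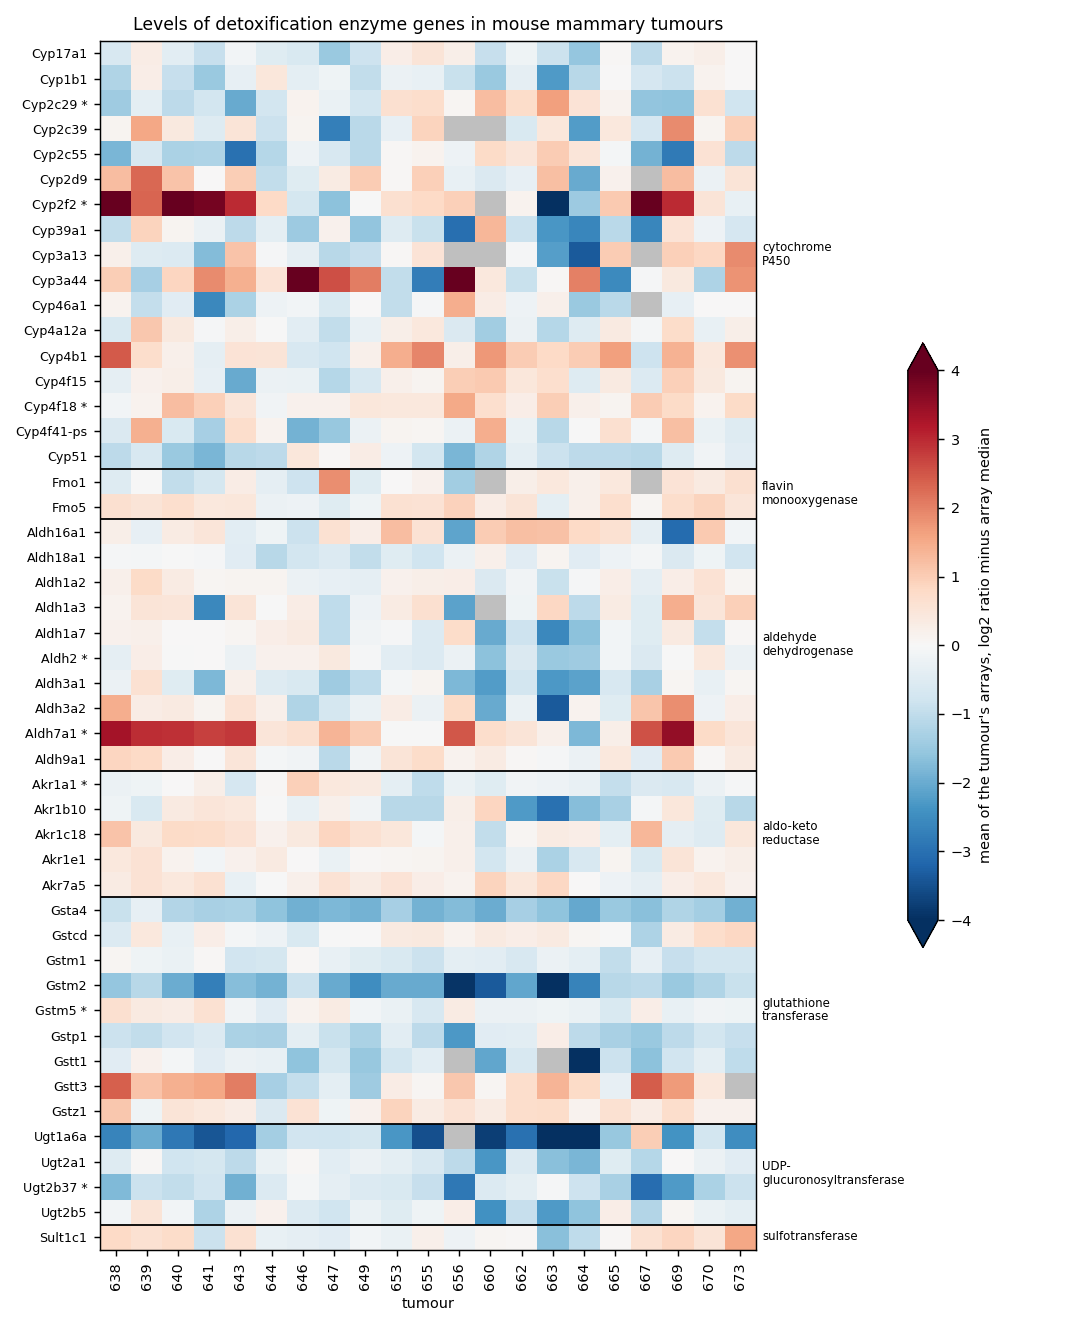
Levels of the 48 enzyme genes (rows, grouped by family) in the 21 tumours (columns), as log2 ratio minus array median, averaged over the arrays of a tumour. Grey marks no value, and stars mark the 8 genes that differed on the deposited scale, without centring. Cyp2f2 and Aldh7a1 are red in tumours 638 to 643, 667 and 669, where Cyp2c29 and Cyp2c55 are pale to dark blue, and Gsta4 and Gstm2 are blue throughout.

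Of 21 annotated glutathione transferases, which join glutathione to electrophiles, 9 were measured. Gstm5 differed on the deposited scale (adjusted p = 0.003) within a narrow range, from -0.64 in tumour 655 to 0.65 in tumour 638, and its adjusted p was 0.897 with arrays centred. Its centred tumour means correlated with those of the paralog Gstm1 (r = 0.83 over 21 tumours, a description). The centred adjusted p of Gstm1 was 0.974, so neither gene differed past the threshold on the scale of that r. Whether the probes bind each other's transcripts or share array error was not tested. The RefSeq window of Gstm5 (GRCm38.p6, chr3:107895604-107895903, plus strand) is shown because the gene differed and its window holds both response element cores, as do those of Aldh1a2 and Aldh9a1 among the 38 members with a window. Capitals mark, in order, GCGTG on the opposite strand, TGACNNNGC with an overlapping GCGTG on the opposite strand, and TATAAA.
Gstm5: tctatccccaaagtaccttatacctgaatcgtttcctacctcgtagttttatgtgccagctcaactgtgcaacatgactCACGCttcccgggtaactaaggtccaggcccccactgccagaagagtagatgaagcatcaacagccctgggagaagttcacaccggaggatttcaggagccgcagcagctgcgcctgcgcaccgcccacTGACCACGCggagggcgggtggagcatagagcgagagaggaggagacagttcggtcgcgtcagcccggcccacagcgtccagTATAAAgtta
These matches describe letters in a window and show no binding.

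Gstm2 lay below 0 in all 21 tumours, from -4.52 in tumour 663, where the arrays read -3.10 and -5.93, to -0.86 in tumour 646, with a median of -1.97. Its differences between tumours did not pass on the deposited scale (adjusted p = 0.0655) and passed with arrays centred (0.0476). Gstt3 had a median of 0.74, with means of 2.41 in tumour 667 and 2.39 in tumour 638 and -1.41 in tumour 649 (adjusted p = 0.153). Gstt1, of the theta class that acts on small halogenated compounds, ran from -5.27 in tumour 664 up to 0.16 in tumour 639, with an adjusted p of 0.0923. The value in tumour 664 is a single array, the next lowest tumour is at -2.09, and without that array the adjusted p was 0.635. Gsta4, which conjugates the lipid peroxidation product 4-hydroxynonenal, ran from -2.04 in tumour 664 to -0.34 in tumour 639 (0.26). With the dye covariate Gstm2, Gstt3 and Gstt1 passed (0.00359, 0.00265 and 0.0291). Gstp1, the transferase most studied in tumours, ran from -2.30 in tumour 656 to 0.28 in tumour 663 (0.557).

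Of 7 annotated UDP-glucuronosyltransferases, 4 were measured. Ugt2b37, of the 2B subfamily that conjugates steroids and drugs, read -2.96 and -3.16 in tumour 667, -3.35 and -2.39 in tumour 656, and -2.71 and -1.81 in tumour 669. At the other end tumour 663 had -0.61 and 0.52. All 21 tumour means were below 0, with a median of -0.85, and the adjusted p was 0.0148. Tumours 656 and 667 were called apart from 11 and 6 other tumours on the deposited scale. Ugt1a6a, which conjugates planar phenols, ran from -5.15 in tumour 664 to 0.99 in tumour 667, the single tumour above 0 of 20 with a value, both ends being single arrays (adjusted p = 0.0739, and 0.0286 centred). Of 12 annotated sulfotransferases only Sult1c1 was measured, from -1.66 in tumour 663 up to 1.55 in tumour 673, with an adjusted p of 0.134 (0.0411 with the dye covariate).

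Against the reference RNA, 1 of 48 members lay on the side of Myc (2.08%, against 2.99% of all genes) and 5 on the opposite side (10.4%, against 6.79%). A call here needed a mean over tumours at least 1 from 0 and a limma adjusted p of 0.05. The reference's own spread is not part of it. The test takes the tumours as independent, although several may come from 1 line. Aldh7a1 averaged 1.33 ± 1.42 (SD, n = 21 tumours) on the side of Myc, with 18 of 21 tumours above 0 (adjusted p = 0.000717). On the opposite side were Ugt1a6a at -2.29 ± 1.46 (n = 20, 3.23e-06) and Gstm2 at -2.03 ± 0.98 (n = 21, 7.02e-08). Gsta4 averaged -1.51 ± 0.42 over 21 tumours, all below 0, and had the smallest adjusted p of the members, 7.87e-11. Ugt2b37 averaged -1.09 ± 0.84 (3.4e-05) and Gstt1 -1.01 ± 1.19 over 19 tumours (0.0029). The Gstt1 call rests on tumour 664, which has 1 array: without it the mean was -0.77 ± 0.60 over 18 tumours, short of the minimum of 1. It was also lost without tumours 646, 649, 660 or 667, and that of Ugt2b37 without tumours 656 or 667 (mean of -0.99 without tumour 667). The other 4 calls held without any 1 tumour. Gstp1, at -0.91 ± 0.52 with 20 of 21 tumours below 0, fell short of that size. The reference is a pool whose make-up is not given in the sources used here, so a low value says only that the tumour RNA held less of the transcript than the pool, or more if the sign is turned.

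**Figure D3:**
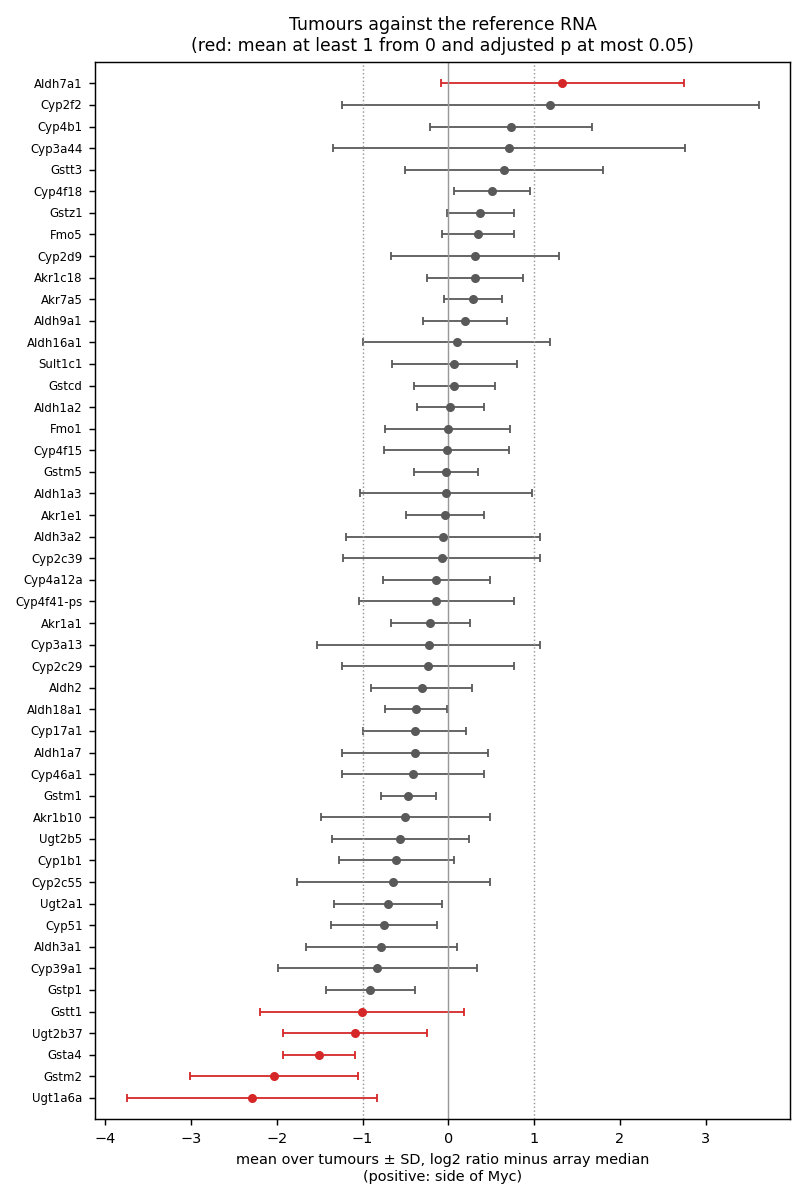
Mean over tumours for each of the 48 enzyme genes (points, with SD over tumours as bars) as log2 ratio of tumour to reference RNA minus array median; dotted lines mark 1 on each side of 0 and red marks the calls. Aldh7a1 is called on the side of Myc, and Ugt1a6a, Gstm2, Gsta4, Ugt2b37 and Gstt1 on the opposite side.

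Joint movement was examined first within families. The permutations take the tumours as independent, although tumours of 1 line may be alike and the labels give no lines. Their p-values are therefore no test over lines. Among the 4 pairs of genes of 1 family that both differed, Cyp2c29 and Cyp2f2 ran against each other over 20 tumours (Pearson r = -0.76, permutation p = 0.00012, adjusted 0.00048; Spearman rho = -0.67, permutation p = 0.00128, adjusted 0.00512). Without the 2 tumours farthest from the median of Cyp2c29, r was -0.68. With slide run means removed r was -0.69, and within run 3 alone it was -0.63 (n = 8, exact permutation p = 0.0965); runs 1 and 2 had 4 and 5 tumours, too few for a value. Both other P450 pairs had adjusted permutation p of 0.683 and 0.823. Aldh2 fell into separate groups of 3 and 18 tumours, so no r is given over all tumours for its pair with Aldh7a1; within the 18, r was 0.07 (permutation p = 0.769).

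After the values had been seen, 15 pairs were examined, formed by the 5 members that passed under all of the fits above and Cyp2c55, within and across families. Cyp2c55 was taken because it had the highest r with Cyp2c29 of all other members. Its relations to the other genes therefore repeat those of Cyp2c29 and are no separate result. The 7 tumours with the highest Cyp2f2 were the same 7 tumours as those with the highest Aldh7a1: 638, 639, 640, 641, 643, 667 and 669. That cut of 7 was also set after the values were seen. Tumour 656, the next in Aldh7a1 at 2.49, had 0.94 for Cyp2f2. The 7 tumours held 5 of the 7 lowest Cyp2c29 values, 6 of the 7 lowest Cyp2c55 values and 4 of the 7 lowest Ugt2b37 values. Tumours 638, 639 and 640 were in slide run 1 and the other 4 in run 3, and none was in run 2. Run 1 had no low tumour, with 0.81 in tumour 644 as its lowest Cyp2f2, and run 3 ran from -1.64 in tumour 647 to 5.26 in tumour 667. Run 2 ran from -4.13 to 0.94. Aldh7a1 levels formed 3 groups, of 8, 12 and 1 tumours, so no r over all tumours is given for it. Within the 8 high tumours, which include tumour 656, its r with Cyp2f2 was 0.22 (exact permutation p = 0.613). Within the 11 of the 12 middle tumours that had a Cyp2f2 value, r was -0.18 (permutation p = 0.58). Cyp2c55 and Cyp2f2 had r = -0.71 and rho = -0.70 over 20 tumours (permutation p = 0.00043 and 0.00083, adjusted over the 15 pairs 0.00115 and 0.00249; r = -0.75 without 2 tumours). Within run 3 that r was -0.58 (n = 8, exact permutation p = 0.133).

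Some lists of genes used as cell type markers varied along with Cyp2f2 and Cyp2c29. Whether the tumour cells themselves expressed the listed genes was not tested. The permutations here also take the tumours as independent, whatever their line. Of 12 salivary and lacrimal gland markers, 6 were measured and 4 of them differed between tumours, against 18.9% of all genes. The median of those 6 was 6.04 in tumour 667, 4.65 in tumour 638 and 3.41 in tumour 643, and it reached -0.03 at its lowest, in tumour 660. It rose with Cyp2f2 (r = 0.76, rho = 0.83 over 20 tumours, both permutation p = 1e-05, the smallest that 100000 permutations can give; adjusted over 14 relations 0.00014; r = 0.80 without 2 tumours) and fell with Cyp2c29 (r = -0.68, rho = -0.70 over 21 tumours, permutation p = 0.00015 and 0.00066, adjusted 0.00105 and 0.00462). With slide run means removed the r with Cyp2f2 was 0.72 (permutation p = 0.00018) and that with Cyp2c29 -0.59 (permutation p = 0.00635). Within run 3 they were 0.83 and -0.63 (n = 8, exact permutation p = 0.00427 and 0.0629). The mesenchymal list fell into separate groups of tumours. Within the tumours where its median was below 0, its r was -0.54 with Cyp2f2 (rho = -0.59, n = 15, permutation p = 0.0375, adjusted over both genes 0.0375) and 0.64 with Cyp2c29 (rho = 0.58, n = 16, permutation p = 0.00874, adjusted 0.0175). Over all tumours its rank relation with Cyp2f2 passed (adjusted permutation p = 0.0101), with the separate groups part of it. The other 10 relations, with 5 lists, had adjusted permutation p of 0.0728 or more for Pearson's r, and by rank Cyp2c29 rose with the sebaceous and keratinocyte list (rho = 0.56, adjusted permutation p = 0.0331). Lpo, lactoperoxidase, was highest at 9.07 in tumour 667, Mucl2 at 8.36 in tumour 667, Dcpp1 at 4.75 in tumour 643 and Car6 at 10.51 in tumour 656. The other 2 did not pass: Amy1 read -1.33 in tumour 667 and -1.09 in tumour 641 (adjusted p = 0.343), and Aqp5 was lowest in tumour 640, at -0.53 (0.686). The airway marker Scgb1a1, the secretoglobin of club cells and the only one measured of 8 in its list, ran from -1.06 to 1.61 and did not differ past the threshold (adjusted p = 0.241). Of 10 hepatocyte markers only Ahsg was measured, from -5.07 in tumour 664 to 2.36 in tumour 647, and it differed (adjusted p = 0.000202). The part of other cell types in the enzyme levels was not tested.

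**Figure D4:**
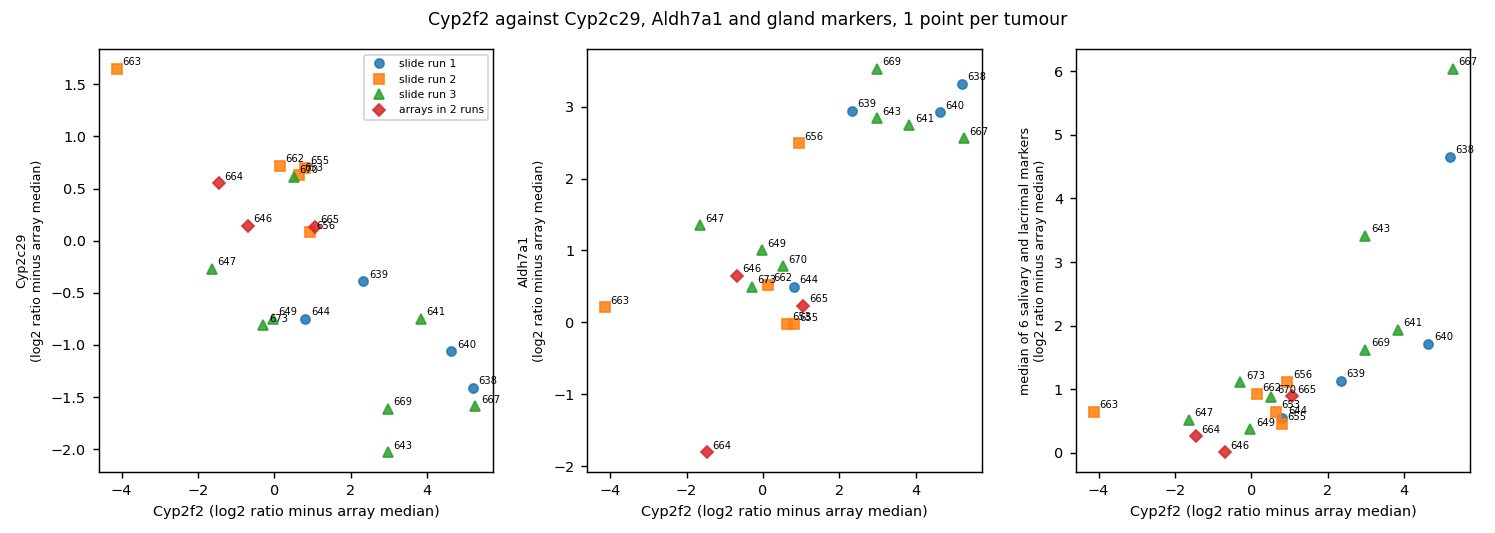
Cyp2f2 (horizontal axes) against Cyp2c29, Aldh7a1 and the median of 6 salivary and lacrimal gland markers (vertical axes), all as log2 ratio minus array median, with a point per tumour and the symbol giving its slide run. Cyp2c29 falls as Cyp2f2 rises (r = -0.76), and the 7 tumours with the highest Cyp2f2 also have the highest Aldh7a1. The cut of 7 was set after the values were seen.

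The remaining marker lists set the frame in which these enzymes were read. All 9 mesenchymal and matrix genes differed between tumours, and their median was above 0 in tumours 644, 646, 647, 649 and 673 and below 0 in the other 16. Of 8 measured epithelial genes 7 differed, of 3 milk protein genes 3, of 7 macrophage genes 6, of 5 adipocyte genes 1, and of 3 sebaceous and keratinocyte genes 1. The share over all genes tested was 18.9%.

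Genes that regulate these enzymes, supply their electrons or work beside them were followed by fixed lists. Over all genes tested, 18.9% differed on the deposited scale and 19.3% with arrays centred. The lists are short and were not tested as sets. Of 12 measured regulators, 2 differed: Rarg, a retinoic acid receptor, from -4.58 in tumour 640 up to 0.72 in tumour 647, with an adjusted p of 0.00151, and Nfe2l2, which encodes NRF2, from -1.43 in tumour 669 to 1.03 in tumour 647 (0.0275, and 0.122 centred). Rarb, with a median of -4.23, was next and did not pass (0.179). Ahr, the aryl hydrocarbon receptor, stayed between -0.63 and 0.67 (0.305), and Keap1, the inhibitor of NRF2, ran from -1.09 in tumour 660 to 1.68 in tumour 638 (0.181).

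Of 9 measured partners in electron transfer and haem turnover, 2 differed. Cyb5r3, cytochrome b5 reductase, ran from -3.15 in tumour 664 up to 0.42 in tumour 647, with an adjusted p of 0.00132, and Cyb5a, cytochrome b5, from -1.90 in tumour 656 to 1.78 in tumour 640 (0.00185). Hmox1, the haem-degrading oxygenase, ran from -3.27 in tumour 667 to 0.09 in tumour 663 (0.0757, and 0.00206 centred).

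Of 14 measured glutathione and NRF2 target genes, 3 differed. Gpx3, the secreted glutathione peroxidase, ran from -0.11 in tumour 663 up to 3.57 in tumour 673, with an adjusted p of 1.53e-05. Pgd, a source of NADPH, ran from -1.50 in tumour 656 to 2.53 in tumour 663 (0.00947). Txn1, thioredoxin, ran from -0.93 in tumour 670 to 0.82 in tumour 646 (0.00133, and 0.438 centred). With arrays centred 7 of the 14 passed, against 19.3% of all genes. Nqo1 was among the 7, from -4.62 in tumour 667 to 0.21 in tumour 670 (0.227 deposited, 0.0396 centred).

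Of 14 other phase I and II enzymes, 2 differed. Mgst1, the microsomal glutathione transferase, which is unrelated in sequence to the soluble family, ran from -1.13 in tumour 649 up to 3.41 in tumour 641, with an adjusted p of 1.96e-05. Its call held with slide run as a block (0.000217) and within run 3 (0.00501), and Gpx3 was the other such gene of these lists (0.00218 and 0.0366). Mgst3 ran from -2.02 in tumour 664 to 0.80 in tumour 649 (0.00624), and Cbr1, carbonyl reductase, did not pass (0.0944).

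Of 5 efflux pumps, Abcb1b, a P-glycoprotein gene, differed, from -1.75 in tumour 643 up to 1.54 in tumour 663, with an adjusted p of 0.0256, and Abcb1a did not pass (0.185). Of 10 measured retinoid and steroid genes, 3 differed. Dhrs3, which reduces retinaldehyde, ran from -3.82 in tumour 663 to 1.19 in tumour 649 (0.000727), Hsd17b10 from -0.56 in tumour 644 to 0.91 in tumour 640 (0.0041), and Scp2, a sterol carrier, from -1.70 in tumour 665 to 0.67 in tumour 646 (0.0264). The calls of Hsd17b10 and Scp2 were lost with arrays centred (0.205 and 0.0996). Hsd17b4 was next and did not pass (0.0703).

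Slide run limits these calls. With the run as a block, 2 of the 48 members passed, Cyp2f2 (adjusted p = 0.0271) and Aldh7a1 (0.0298), against 586 of all 7629 genes. The other 6 differing members had adjusted p from 0.0579 to 0.4. Within runs 1, 2 and 3, limma called none of the members, against 0, 0 and 192 of all genes. At an unadjusted p under 0.05 were 4, 3 and 9 of 48 members, against 982 of 7616, 460 of 7627 and 1200 of 7629 genes. The loss of calls was thus shared by all genes.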

How the data were processed

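Per the labels' protocols, total RNA was extracted with TRIzol, labelled with Cy3 or Cy5 and hybridised in dye-swapped pairs. The authors deposited log2 ratios per probe; that scale was read from the values, and no source used here gives the background correction or normalization. Of 22800 probes, 24.1% of cells are blank. The repeated top value of 16.61 (15512 values) was set missing. Orientation of arrays came from the first eigenvector of the differences between paired arrays, and 42 arrays kept it when either random part of the probes was used alone. Turned arrays had medians from -1.42 to 1.24. Arrays of 1 orientation correlated at -0.175 at the lowest.

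Symbols are those of the platform annotation, with 1 symbol for 16874 probes, several for 134 and none for 5792, of which 16196 matched a current entry. The 232 Gapdh spots were averaged to 1, and the probes of a gene were averaged (Cyp4f15 alone has more than 1 among members). Probes with both arrays of 15 tumours numbered 9407.

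Tumours were compared with limma 3.58.1 in R 4.3.3 (moderated F test, tumour as factor, Benjamini-Hochberg over all genes) on the deposited scale without centring; the levels given are centred. Pairs of tumours used the same fit, adjusted over genes and pairs. Groups within a gene's levels came from mclust 6.1.1 (1 to 3 components), and permutations (two-sided) were run in R and SciPy 1.17.1. The tests were checked on simulated data. What limits precision most was not tested.

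Members and lists were chosen with earlier results of these data known. Named were all members that differed, the 10 others with the widest range, the 5 farthest from 0 on each side, and of each list the genes that differed (at most 5) and the next. Cyp2c55, Cyp51, Gstm1, Fmo1, Sult1c1, Aldh18a1, Aldh1a2, Aldh9a1, Ahr, Keap1 and Nqo1 were named after their values were seen. Alternatives were centring, quantile normalisation, dye, slide run, the top value, value filters, dim readings, probe choice, leaving out arrays or tumours, and a stricter threshold.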

Additional observations from a re-analysis of the deposited data

How the results depend on the processing

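Precision rests on 2 arrays per tumour, many probes are dim, and the p-values of differences between tumours measure hybridisation error. The cause of the changes below was not tested. No paired analysis was possible because the array numbers follow accession order and pair nothing across tumours.

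Members that differed numbered 8 as reported, 10 centred, 7 after quantile normalisation, 9 with the top value kept, 8 without tumour 656 and, added after seeing the data, 12 without tumour 660. They numbered 22 with dye orientation as a covariate (3437 of all genes), 2 with slide run as a block (586), 4 at an adjusted p of 0.01 (718), 2 of 134 under the loosest value filter (606), and 0 within runs 1, 2 and 3, where 0, 0 and 192 of all genes passed and 982, 460 and 1200 had unadjusted p under 0.05. Leaving out 1 array in turn gave 7 to 22 members and 1159 to 2437 genes; the highest came without the second array of tumour 660, and 17 members passed without the first array of tumour 663.

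By family, leaving out 1 array gave 1 to 3 aldo-keto reductases, 2 to 6 aldehyde dehydrogenases, 2 to 6 P450s, 0 flavin monooxygenases, 1 to 4 glutathione transferases, 0 to 1 sulfotransferases and 1 to 4 UDP-glucuronosyltransferases. By list it gave 1 to 4 regulators, 2 to 5 electron and haem partners, 3 to 6 glutathione genes, 2 to 6 other enzymes, 0 to 2 pumps and 2 to 5 retinoid and steroid genes. Centring gave 0 aldo-keto reductases, 5 P450s, 2 UDP-glucuronosyltransferases, 1 regulator and 7 glutathione genes. Quantile normalisation gave 0 aldo-keto reductases, 1 aldehyde dehydrogenase, 1 regulator, 6 glutathione genes and 1 retinoid or steroid gene. The dye covariate gave 4, 4, 6, 5, 1 and 2 of the families other than the flavin monooxygenases, in the order aldo-keto, aldehyde, P450, glutathione, sulfo and glucuronosyl, and 6, 4, 8, 5 and 6 of the lists other than pumps, in the order above. The run block gave 1 aldehyde dehydrogenase, 1 P450, 1 regulator, 1 other enzyme and 0 of the remaining families, pumps and haem partners; within runs all families and lists gave 0, except that in run 3, 1 glutathione gene and 1 other enzyme passed. Under the loosest value filter 0 aldo-keto reductases, glutathione transferases, UDP-glucuronosyltransferases, regulators and pumps passed, with 1 each of the aldehyde dehydrogenases, P450s and retinoid genes. At an adjusted p of 0.01, 0 aldo-keto reductases, UDP-glucuronosyltransferases and pumps, 1 P450 and 1 regulator passed. Complete measurement gave 2 aldo-keto reductases, 2 glutathione transferases, 1 regulator and 6 glutathione genes; without dim readings 2 aldo-keto reductases, 0 UDP-glucuronosyltransferases and 4 other enzymes passed. Without tumour 656, 1 regulator passed. Without tumour 660, 2 aldo-keto reductases and 5 P450s passed. Centring with the dye covariate, also added, gave 11 members, when 2018 of all genes differed. Among the 11 were 0 aldo-keto reductases, 5 P450s, 2 glutathione transferases and 2 UDP-glucuronosyltransferases, and 8 glutathione genes passed.

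On the side of Myc the count of 1 became 0 with the top value kept or without dim readings. It became 2 after quantile normalisation or, added after seeing the data, without tumour 664, and 7 without a minimum size. On the opposite side, the count of 5 became 1 without dim readings and 16 without a minimum size. The counts of all genes under these settings are not given here, so these counts are no result about the members. Of the relations within families, the pair Cyp2c29 and Cyp4f18 had r of -0.47, and Cyp2f2 and Cyp4f18 0.59, on the deposited scale, past the threshold there alone. The pair Aldh2 and Aldh7a1 also passed on that scale alone (adjusted permutation p = 7e-04 for Pearson's r, against 0.104 centred). Separate groups of Aldh2 levels are part of that, so no r over all tumours is given. The relation of Cyp2c29 and Cyp2f2 had r from -0.76 to -0.69 over the deposited scale, the fit without tumour 656 and slide run means removed, -0.63 within run 3, and -0.68 without the 2 tumours farthest from the median (-0.80 with run means removed as well).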
